A study of Homo sapiens with 7 samples.

Results

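The 10 genes described here encode human serotonin receptors: HTR1E, HTR1F, HTR2A, HTR2B, HTR2C, HTR3A, HTR4, HTR5A, HTR6 and HTR7. They are 10 of the 16814 protein-coding genes of at least 5 kb on chromosomes 1 to 22 and X whose 5-hydroxymethylcytosine (5hmC) was measured. HTR1E was chosen by its own value in these data, since its gene body was covered by more 5hmC peaks after TDP-43 knockdown. The other 9 genes were added as relatives in the same receptor family. The values of HTR1E are therefore given as a description, with no test, and the other genes carry the tests. Peaks were counted where they overlapped the gene body (hg38, RefSeq gene positions) or the 20 kb on either side of it.

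The study compared SH-SY5Y cells, a human neuroblastoma line of sympathetic, noradrenergic character, with and without stable depletion of TDP-43, a nucleic acid-binding protein that is the product of TARDBP. Control cells (shNC) carried a lentiviral control short hairpin RNA, and knockdown cells (shTDP-43) carried a hairpin against TDP-43 from the same U6-promoter vector. Puromycin selection at 2 µg/mL for 2 weeks, with 1 µg/mL afterwards for maintenance, is in the protocol attached to both groups, although its wording names the knockdown cells. Each group had 3 libraries of hMe-Seal, in which 5hmC is tagged with an azide-bearing glucose, biotinylated, pulled down and sequenced. The labels name 1 hairpin per group, all in this 1 cell line, and do not say whether replicates came from separate cultures. The p-values therefore measure only the spread between these libraries, which may be technical. The hairpin's effect on TARDBP RNA or protein was not checked here, because peak lists hold no expression.

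5hmC is made from 5-methylcytosine by the TET enzymes, lies mostly at CpG dinucleotides, and is abundant in the bodies and enhancers of neuronal genes. Serotonin receptors fall into families by the signal they pass on. The receptors encoded by HTR1E, HTR1F and HTR5A couple to inhibitory G proteins that lower cyclic AMP. HTR2A, HTR2B and HTR2C encode receptors that activate phospholipase C through Gq, and HTR4, HTR6 and HTR7 encode receptors that raise cyclic AMP through Gs. HTR3A is the exception: it encodes a subunit of a cation channel that serotonin opens directly.

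Of the 10 genes, 8 had an entry in the RefSeq promoter table (GRCh38.p14), with 11 windows of 300 bases running from 250 bases before to 50 after a transcription start. HTR2B and HTR3A had none. The windows of HTR1E, HTR2A, HTR6 and HTR7 are printed because they span the range from a CpG-poor start that a peak touched to CpG-dense starts that no peak touched. Each is written 5′ to 3′ on the gene's own strand, with every CpG in capitals.
HTR1E, chr6:86937278-86937577, plus strand: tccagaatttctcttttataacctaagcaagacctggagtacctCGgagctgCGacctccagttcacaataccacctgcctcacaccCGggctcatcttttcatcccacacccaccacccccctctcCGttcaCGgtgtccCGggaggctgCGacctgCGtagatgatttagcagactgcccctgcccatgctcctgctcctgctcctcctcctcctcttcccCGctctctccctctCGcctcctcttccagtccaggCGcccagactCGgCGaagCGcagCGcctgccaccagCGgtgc
HTR2A, internal start, chr13:46897004-46897303, minus strand: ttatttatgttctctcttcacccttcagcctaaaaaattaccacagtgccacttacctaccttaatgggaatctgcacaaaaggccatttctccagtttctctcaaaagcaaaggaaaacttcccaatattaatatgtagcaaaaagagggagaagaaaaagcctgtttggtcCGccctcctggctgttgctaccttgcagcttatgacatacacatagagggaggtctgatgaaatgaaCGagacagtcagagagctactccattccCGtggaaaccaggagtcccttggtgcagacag
HTR6, chr1:19664625-19664924, plus strand: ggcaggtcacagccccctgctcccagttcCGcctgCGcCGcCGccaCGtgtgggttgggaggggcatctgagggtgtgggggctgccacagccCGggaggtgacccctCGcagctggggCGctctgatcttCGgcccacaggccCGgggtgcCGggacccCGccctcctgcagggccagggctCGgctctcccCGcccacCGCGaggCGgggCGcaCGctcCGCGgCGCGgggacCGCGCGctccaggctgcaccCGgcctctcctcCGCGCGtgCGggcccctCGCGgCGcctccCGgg
HTR7, chr10:90857990-90858289, minus strand: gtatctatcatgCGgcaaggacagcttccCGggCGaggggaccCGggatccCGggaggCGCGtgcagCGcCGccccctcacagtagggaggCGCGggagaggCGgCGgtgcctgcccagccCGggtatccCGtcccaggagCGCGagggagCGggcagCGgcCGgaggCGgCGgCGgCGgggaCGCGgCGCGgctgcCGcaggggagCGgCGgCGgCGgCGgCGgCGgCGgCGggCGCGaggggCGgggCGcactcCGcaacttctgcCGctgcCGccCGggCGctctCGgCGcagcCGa

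The HTR1E window held 16 CpGs, close to the median of 14 over 34961 promoters of the table. The HTR2A internal window held 3, the HTR6 window 35 and the HTR7 window 50, and 98.7% of promoters held fewer than HTR7. Peaks reached only the upstream edge of the HTR1E window, covering 0, 0 and 6 bases in the controls (replicates 1, 2 and 3 in turn, as in every list of values here) and 22, 46 and 0 bases in the knockdowns. In the HTR2A internal window 60 bases were covered in control 2 and none in the other libraries. The other 9 windows had no covered base in any library, among them the windows of HTR1F (21 CpGs at its outer start), HTR5A (26 CpGs) and HTR2C (14 CpGs). The hexamer TGTGTG, a form of the UG-rich sequence that TDP-43 binds in RNA, was searched on both strands. It occurred in none of the 11 windows and in 17.2% of all promoters of the table. This says only that these letters are not in these windows.

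The 6 libraries held 117949 to 157157 peaks of a median width of 507 to 544 bp, covering 78.2 to 111 Mb. Control 2 had the most peaks. Depth is known only indirectly, since no source used here gives read totals. A background per position can be worked out from the authors' pairs of fold and p-value, and was 2.48 and 2.85 reads in controls 1 and 3 and 2.27, 1.65 and 2.24 in the knockdowns. It could not be read for control 2, in which only 3 of 60 value pairs matched whole reads. This measure was thus higher in both readable controls than in any knockdown, and its part in the results below was not tested. Coverage of genes moved with the groups as well: the median shift of all genes, knockdown minus control, was -0.08 on the log2(percent + 1) scale for gene bodies and -0.12 with flanks. Before testing, each library was centred on its median deviation from the gene means. The median difference was then 0.02 for gene bodies and 0.005 with flanks, and differences are relative to this centring.

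Peaks were called at 7 of the 10 genes, and 4 of them (HTR1E, HTR2A, HTR4 and HTR6) had a gene-body peak in all 6 libraries. With flanks, the 10 genes held 31, 42 and 36 peaks in the control libraries and 35, 32 and 37 in the knockdown libraries. The totals of both groups overlapped. Merging overlapping peaks of the 6 lists gave 57 regions at these genes, of which 16 (28.1%) were present in all 6 libraries, against 35.5% of 200818 merged regions in the genome. A single region separated the groups completely: it lay in HTR2A and was called in 3 controls and 0 knockdowns. That is 1.75% of the 57, against 1.97% of all merged regions. None of the 57 was called in 3 knockdowns and 0 controls, a class that made up 1.06% of all merged regions. Both shares are near the background.

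HTR1E spans chr6:86937528-87016679 (79152 bp, gene ID 3354). Peaks covered 3.64%, 6.14% and 4.11% of its body in the controls and 12.7%, 10.2% and 11.7% in the knockdowns. Every knockdown lay above every control, and the lowest knockdown stood well clear of control 2, the highest control. The means were 4.63% ± 1.33 and 11.5% ± 1.29 (SD, n = 3 each), a ratio of 2.49, and the control mean was 3.87% without control 2. The fitted difference was 1.28 (SE 0.13) on the log2(percent + 1) scale. Where summits per 10 kb were counted in place of covered bases it was 0.41. That is a log2 scale of another quantity with another pseudocount, so the 2 values are not directly comparable. With the flanks, coverage was 3.55% ± 0.866 and 8.58% ± 1.11. The call of HTR1E as higher in knockdown is the one that chose the gene, so nothing is read from it. Refits of the same lists made it in 9 of 14 alternative settings for the gene body and 10 of 16 with flanks. That tally repeats the choice of the gene and is no support. Among all genes tested 0.179% were called higher for the gene body and 0.134% with flanks, and none of the other receptor genes was.

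**Figure D1:**
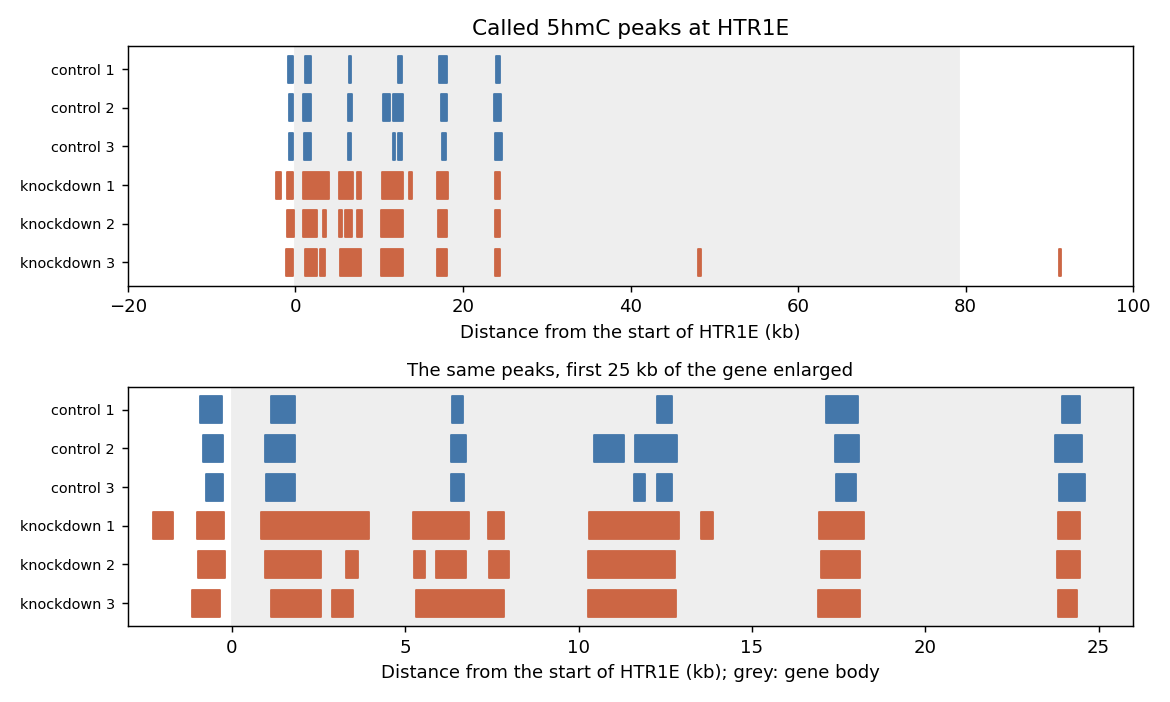
Called 5hmC peaks at HTR1E in the 6 libraries, by distance from the gene's start in kb, with the gene body in grey; blue bars are control peaks and orange bars knockdown peaks. The lower panel enlarges the start of the gene. There knockdown peaks cover more bases than control peaks in each shared region except the last, near 24 kb.

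The added coverage came more from wider peaks than from more of them. Controls had 5, 6 and 6 peaks in the gene body and knockdowns 7, 8 and 7. The bases covered were 2881, 4859 and 3251 in controls and 10072, 8043 and 9299 in knockdowns. The widest single peak measured 923, 1220 and 819 bp in controls and 3109, 2512 and 2557 bp in knockdowns. Median peak width did overlap between groups, with 816 bp in control 2 and 769.5 bp in knockdown 2. HTR1E and its flanks held 10 merged regions, 6 of them present in all 6 libraries. The other 4 were each called in 1 library, a knockdown every time.

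Nearly all of the signal lay at the 5′ end of the gene. In the first 25 kb peaks covered 14.7% ± 4.21 in controls and 36.1% ± 4.07 in knockdowns (SD, n = 3 each). In the remaining 54.2 kb no control had a peak, and knockdown 3 had 1, about 48.0 kb from the start. In bins of 5 kb from the start, control and knockdown means were 15.8% and 47.5% at 0 to 5 kb and 7.45% and 42.6% at 5 to 10 kb. They were 21.7% ± 17.9 and 53.4% ± 5.11 at 10 to 15 kb, where control 2 (42.0%) stood near the knockdowns, and 14.6% and 24.3% at 15 to 20 kb. The groups did not overlap in any of these 4 bins. At 20 to 25 kb they did, with means of 13.7% and 12.5%. In the 5 kb before the start, coverage was 11.3% ± 1.38 in controls and 19.6% ± 6.44 in knockdowns.

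**Figure D2:**
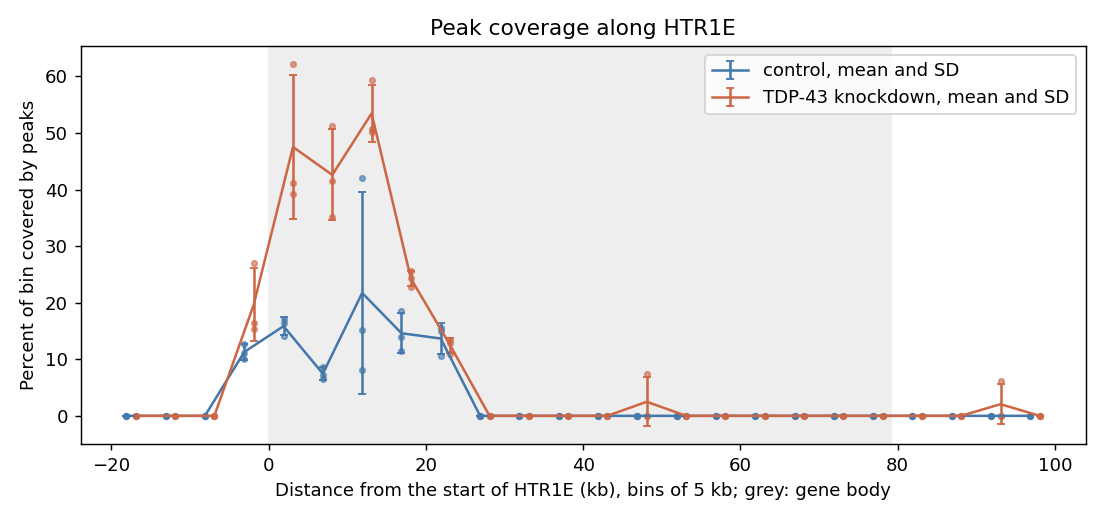
Percent of each 5 kb bin covered by peaks along HTR1E, by distance from the gene's start in kb, with the gene body in grey; small points are libraries, lines are group means and bars are SD (n = 3 each). Knockdown coverage stands above control in the bins from 0 to 20 kb and meets it at 20 to 25 kb, beyond which hardly any peak was called.

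In the 6 regions shared by all libraries, the summit of the tallest peak of each library lay at nearly the same place, with a range of 18 to 69 bp across the 6 lists. Knockdown peaks also reached over bases that no control peak covered. The region at chr6:86938376-86941484, 0.848 to 3.96 kb from the start, was covered over 703, 855 and 819 bp in controls and 3109, 1958 and 2062 bp in knockdowns. The next, at chr6:86942764-86945508, was covered over 325, 433 and 359 bp in controls and 2071, 1759 and 2557 bp in knockdowns. In both, the groups were far apart. The region at chr6:86947792-86950423, 10.3 to 12.9 kb from the start, had the highest authors' fold of the 6 regions in every library. It was covered over 405, 2098 and 755 bp in controls and 2608, 2512 and 2538 bp in knockdowns, so control 2 was again close to the knockdowns. The last region, chr6:86961285-86962131 in the 20 to 25 kb bin, showed no such gap, with 525, 777 and 747 bp in controls and 648, 674 and 547 bp in knockdowns.

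Upstream of the gene, the region chr6:86936380-86937323 was covered over 502 to 638 bp in controls and 770 to 820 bp in knockdowns. It ended just inside the promoter window printed above. From there, a gap of 1052 bp with no peak in any library held the transcription start. Base by base, 13218 bp of HTR1E and its flanks were covered in at least 1 library, 2836 bp (21.5%) in all 6, and 2752 bp (20.8%) in all 3 knockdowns and no control. Over the genome that last class made up 1.07% of covered bases. No base was covered in all 3 controls and no knockdown, against 2.08% of covered bases in the genome. Because HTR1E was chosen for its higher knockdown coverage, such shares were to be found there. They describe the gene and are no separate support.

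Beyond the gene the groups mostly overlapped. In bins of 20 kb within 200 kb of its start, the groups were apart at 0 to 20 kb (14.9% ± 4.78 and 42.0% ± 5.14), in the 20 kb before it (2.82% ± 0.344 and 4.91% ± 1.61) and at 120 to 140 kb (1.75% ± 0.199 and 2.83% ± 1.14), and they overlapped in the other bins. ZNF292, a zinc finger gene 139 kb beyond the end of HTR1E, was covered over 4.55% ± 2.16 in controls and 4.68% ± 1.38 in knockdowns (limma adjusted p = 0.769). CGA, which encodes the common alpha subunit of the glycoprotein hormones, held a peak in control 2 and in knockdown 1 alone. LOC124901355, 134 kb away and too short to enter the test, was covered over 19.7%, 19.1% and 16.1% in controls and 13.5%, 15.9% and 3.42% in knockdowns, so that there every knockdown lay below every control. GJB7, a connexin gene 266 kb away, had no peak in any control and 3.57%, 2.09% and 1.85% coverage in the knockdowns. It met the filter of a 1% mean through the knockdowns alone. The gene did not pass the test (limma adjusted p = 0.0683, range over the alternative settings 0.0279 to 0.297). Again the groups did not overlap, here with the knockdowns higher.

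By distance over the 6 libraries in log2(percent + 1), the 5 genes with gene-body coverage most like that of HTR1E were RSRC2 (0.659), FH (0.661), ANKRD29 (0.677), PPP1R15B (0.684) and CNMD (0.704). FH encodes the mitochondrial enzyme fumarate hydratase, and PPP1R15B a subunit that directs protein phosphatase 1 to the translation factor eIF2 alpha. Their control means were 4.16% to 5.20% and their knockdown means 8.65% to 9.54%, below the 11.5% of HTR1E. They were selected on that likeness, so the match is a description.

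HTR1F (chr3:87792706-87993839) and HTR5A (chr7:155070324-155087392), the other genes of inhibitory receptors, had no called peak in the gene body or within 20 kb in any of the 6 libraries. The nearest peaks lay 81.8 kb from HTR1F and 61.9 kb from HTR5A. Among genes within 1.25-fold of its length, 8.04% also lacked a peak with flanks for HTR1F, and 15.1% for HTR5A. HTR1F is longer than HTR1E, at 201134 bp against 79152 bp. An absent peak means that no enrichment passed the authors' threshold at this depth, not that 5hmC is absent.

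HTR2A, which encodes the main cortical receptor of serotonergic hallucinogens, spans chr13:46831546-46898082 on the minus strand. Its body was covered over 2.47%, 3.77% and 2.66% in controls and 1.36%, 2.47% and 2.205% in knockdowns. The groups only just failed to overlap, the lowest control and the highest knockdown both being 2.47%. The means were 2.97% ± 0.704 and 2.01% ± 0.578 (SD, n = 3 each), and the difference of -0.30 (SE 0.24) on the log2 scale did not pass the test (adjusted p = 0.598). Peak counts in the body were 4, 5 and 4 in controls and 2, 3 and 3 in knockdowns.

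Most peaks of HTR2A lay in a cluster 31.6 to 43.4 kb downstream of its start. In it, chr13:46854666-46855243, which overlaps the antisense gene HTR2A-AS1, and chr13:46859547-46860117 were called in all 6 libraries at like widths (408 to 519 bp and 412 to 507 bp). Between them lay the region that separated the groups, chr13:46856508-46856986, covered over 337, 479 and 329 bp in controls and 0 bp in each knockdown. The remaining region, chr13:46865767-46866517, was missing in knockdown 1 alone. A region 5.50 to 6.02 kb upstream of the start was called in 3 controls and in knockdown 2.

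HTR2B, the receptor gene known for its role in heart valve cells, spans chr2:231108230-231125042 and lies wholly inside PSMD1, a proteasome subunit gene, so its peaks are also peaks of PSMD1. In its own body coverage was 2.77%, 6.57% and 2.31% in controls and 4.09%, 2.26% and 0% in knockdowns, and the groups overlapped (adjusted p = 0.611). With 20 kb on either side it was 5.20%, 8.11% and 6.87% in controls and 2.71%, 1.77% and 2.62% in knockdowns. Here every knockdown lay below every control. The means were 6.73% ± 1.46 and 2.36% ± 0.519 (SD, n = 3 each), a ratio of 0.351, and the difference of -1.07 (SE 0.16) passed the test (limma adjusted p = 0.0364).

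HTR2B was the single gene of the 6 fitted that was called lower with flanks, where 0.227% of all genes were. For the gene body none was called lower, where 0.506% of all genes were, and 1360 of the 10077 genes tested had an unadjusted p under 0.05. The HTR2B call held in 4 of 16 alternative settings, with adjusted p from 0.0212 to 0.307, though the direction was the same in all 16. It was lost without control 3 (adjusted p = 0.220), knockdown 1 (0.0868), knockdown 2 (0.133) or knockdown 3 (0.146), and with flanks of 10 kb (0.307) or 50 kb (0.206).

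The HTR2B difference lay mostly outside the gene body. The flanking regions chr2:231090609-231092150 and chr2:231093974-231095188 were covered over 1033 ± 154 bp and 1136 ± 123 bp in controls and 317 ± 313 bp and 265.0 ± 233 bp in knockdowns. Each was missing in 1 knockdown. A pair of regions beyond the other end, chr2:231126095-231126460 and chr2:231127514-231128245, was called in controls 2 and 3 and in no knockdown. A region further out, chr2:231138592-231139136, was called in all 6 libraries over 297 to 524 bp. Over the whole of PSMD1 coverage was 5.84% ± 2.90 in controls and 3.03% ± 1.37 in knockdowns and did not pass the test (adjusted p = 0.391). Base by base, 835 bp (14.0%) of the covered bases at HTR2B were in all 3 controls and no knockdown, against 2.08% in the genome, and none was in all 3 knockdowns and no control. These shares restate the lower coverage with flanks and are no separate support.

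HTR2C, whose RNA is edited by adenosine deaminases in neurons, is the longest of the 10 genes (chrX:114584086-114910061, 325976 bp) and was nearly free of peaks. Control 2 had a peak covering 681 bp, knockdown 1 had 451 bp and knockdown 3 had 494 bp, in 2 regions about 145 and 195 kb downstream of the start. Coverage was at most 0.209% in any library, so the gene fell under the filter of a 1% mean and was not tested.

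HTR3A, the channel subunit gene, spans chr11:113975108-113990313. Its body was covered over 2.72%, 2.63% and 2.49% in controls, which were tightly grouped, and over 0%, 0% and 1.78% in knockdowns. The means were 2.61% ± 0.113 and 0.592% ± 1.03 (SD, n = 3 each). This was the largest negative difference among the 6 genes tested for the gene body (-1.26, SE 0.44), but it did not pass the test (adjusted p = 0.314). The difference passed in 2 of 14 alternative settings, with stricter peaks (0.0480) and with equal numbers of peaks (0.0345). HTR3A met the filter of a 1% mean only through its controls, since the knockdown mean lay below 1%. All of its body coverage came from a single region at the gene's lower-coordinate end, chr11:113974904-113975520, called in 3 controls and in knockdown 3.

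With flanks, HTR3A coverage was 4.40%, 4.18% and 3.34% in controls and 3.83%, 2.37% and 4.13% in knockdowns, and the groups overlapped (adjusted p = 0.910). The strongest site of the locus lay outside the gene at chr11:113971286-113972364. It was called in all 6 libraries over 1019 to 1044 bp in controls and 867 to 951 bp in knockdowns. HTR3B, which encodes the partner subunit of the channel and is not among the 10 genes, was covered over 3.53% ± 0.723 in controls and 3.36% ± 0.627 in knockdowns (adjusted p = 0.901).

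**Figure D3:**
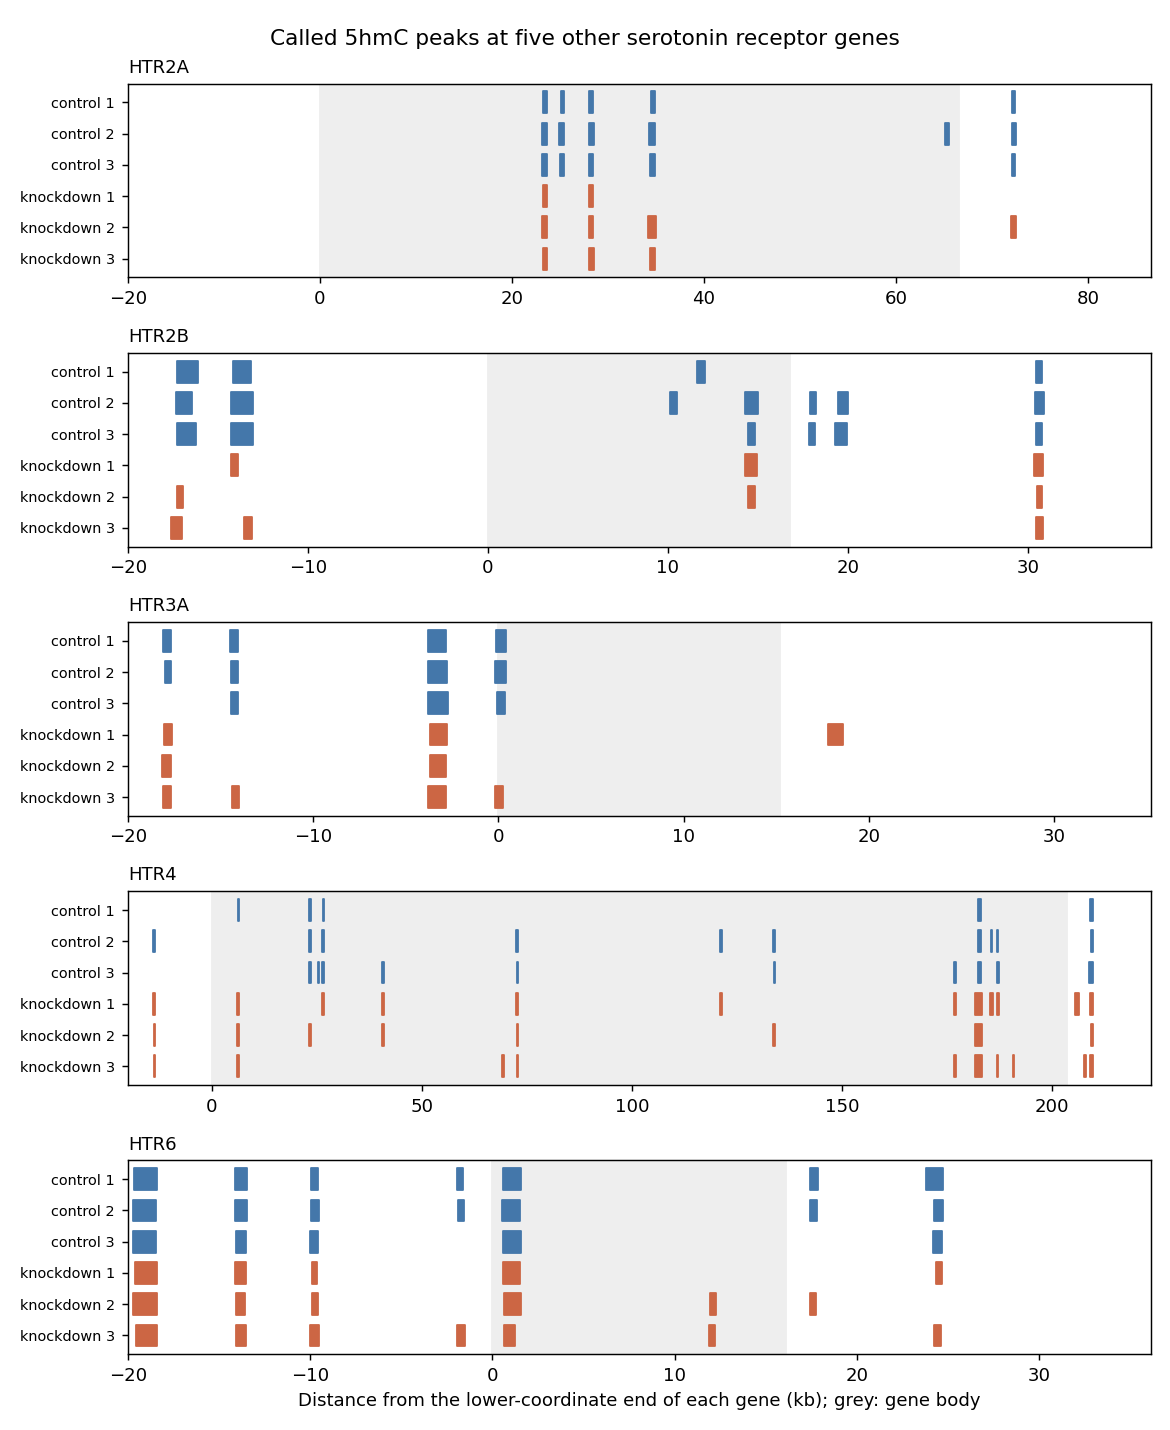
Called 5hmC peaks at HTR2A, HTR2B, HTR3A, HTR4 and HTR6 in the 6 libraries, by distance in kb from the lower-coordinate end of each gene, with gene bodies in grey, control peaks in blue and knockdown peaks in orange. The flanking peaks of HTR2B on its lower-coordinate side are narrower or missing in knockdowns. Its outermost peak on the other side is present in all 6 libraries. The HTR3A end peak is missing in knockdowns 1 and 2, and the HTR4 peak near 182 kb is wider in every knockdown.

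HTR4, which encodes a receptor of gut and brain that raises cyclic AMP, spans chr5:148451032-148654527 on the minus strand. Its body was covered over 0.785%, 1.75% and 1.86% in controls and 2.61%, 1.89% and 1.98% in knockdowns. The groups did not overlap, but control 3 and knockdown 2 differed by little. The means were 1.47% ± 0.593 and 2.16% ± 0.390 (SD, n = 3 each), and the difference of 0.48 (SE 0.24) did not pass the test (adjusted p = 0.419). With flanks the means were 1.57% ± 0.554 and 2.42% ± 0.608 (adjusted p = 0.252).

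Peaks of HTR4 were scattered: 18 merged regions, of which 2 were present in all 6 libraries and 5 in a single library. The shared region inside the gene, chr5:148632722-148634313, lay 20.2 to 21.8 kb downstream of the start. It was covered over 630, 730 and 635 bp in controls and 1567, 1592 and 1579 bp in knockdowns, or 665 ± 56.3 bp and 1579 ± 12.5 bp. The widths of each group lay close together and far from those of the other. This region was picked out after its values were seen. Over HTR4 and its flanks, 951 bp (9.08%) of the covered bases were in all 3 knockdowns and no control, against 1.07% in the genome. Bases of that region count toward this share, which is therefore no separate support. Near the far end of the gene, chr5:148456954-148457586 was called in control 1 and in 3 knockdowns, while chr5:148474216-148474758 was called in 3 controls and in knockdown 2. Both also lie in LOC107986462, a noncoding gene. The other shared region, chr5:148659968-148660917 upstream of the start, was covered over 674.0 ± 183 bp and 664 ± 159 bp.

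HTR6, which encodes a receptor found mainly in the brain, spans chr1:19664875-19680966 and was the most evenly covered of the 7 genes with peaks: 43.1% of its covered bases with flanks were shared by all 6 libraries, against 29.0% in the genome. Its body was covered over 6.12%, 6.17% and 6.05% in controls and 6.00%, 7.67% and 6.02% in knockdowns. Knockdown 2 was the highest and the groups overlapped (difference 0.18, SE 0.18, adjusted p = 0.679). With flanks the means were 8.01% ± 1.15 and 6.62% ± 0.422, again overlapping (adjusted p = 0.740). Its main peak, chr1:19665417-19666457, began 0.542 kb after the start and was called in all 6 libraries over 973 to 993 bp in controls and 639 to 965 bp in knockdowns.

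The CpG-dense HTR6 start printed above lay in a stretch of 2055 bp without a peak in any library. A region 11.9 to 12.3 kb into the gene, chr1:19676747-19677126, was called in knockdowns 2 and 3 and in no control. Of the flanking peaks, 3 regions on the side of NBL1, a gene for a secreted antagonist of bone morphogenetic proteins, were called in all 6 libraries. NBL1 itself was covered over 20.4% ± 0.417 in controls and 17.2% ± 2.50 in knockdowns (adjusted p = 0.734). TMCO4, on the other side, was covered over 3.51% ± 0.424 and 2.67% ± 0.140 (adjusted p = 0.620).

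HTR7 (chr10:90740823-90858039), the third receptor gene of the cyclic AMP-raising family, had no called peak in its 117217 bp or within 20 kb in any library. The nearest peak was 55.6 kb away. Of genes within 1.25-fold of its length, 7.28% also lacked a peak with flanks. Its start had the most CpGs of the 11 promoter windows.

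**Figure D4:**
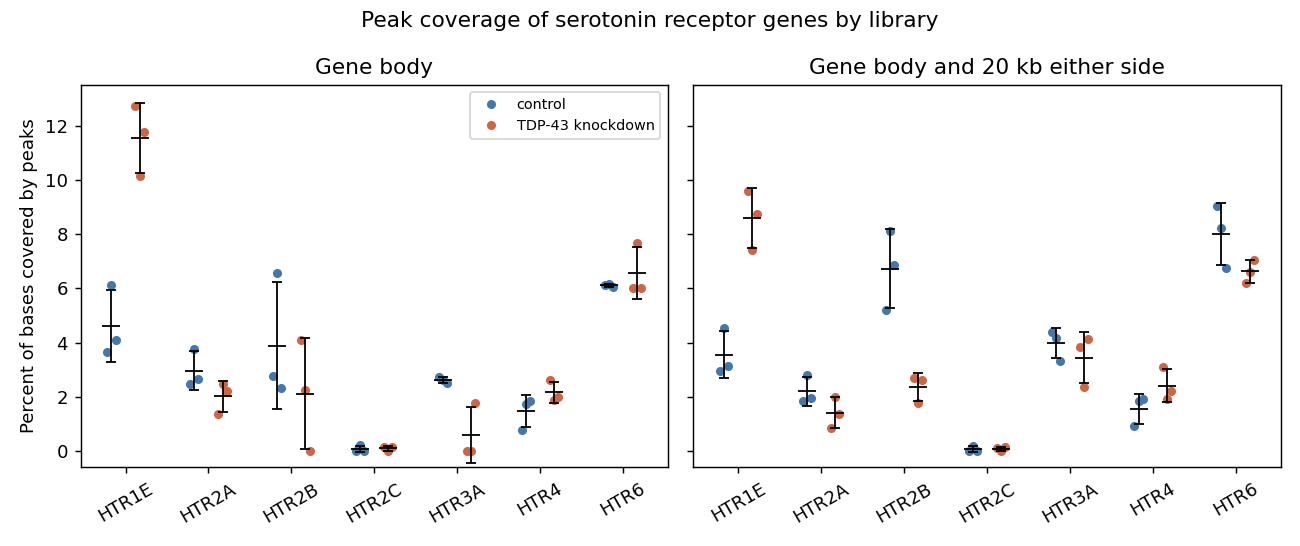
Percent of bases covered by peaks in the 7 genes with any peak, for the gene body (left) and with 20 kb on either side (right); points are libraries, blue for control and orange for knockdown, and black bars are means and SD (n = 3 each). HTR1E stands apart upward in knockdown in both panels, HTR2B downward with flanks alone.

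Of the 10 genes, 6 (HTR1E among them) entered each fit, and 4 (HTR1F, HTR2C, HTR5A and HTR7) had too little coverage. For the gene body 3 differences were positive and 3 negative, and with flanks 2 were positive and 4 negative. In the gene body the groups did not overlap with knockdown higher in HTR1E and HTR4, and with knockdown lower in HTR2A and HTR3A. Over all genes tested the corresponding shares were 3.34% and 18.3%. Overlap was judged on percent coverage before centring, unlike the differences. With flanks the groups did not overlap with knockdown higher in HTR1E and HTR4 and lower in HTR2B, against 2.43% and 22% of all genes. The 5th to 95th percentile of all tested genes ran from -0.99 to 0.67 for the gene body and from -0.55 to 0.48 with flanks. Apart from HTR1E, which was selected on its difference, HTR3A lay below the range for the gene body, and HTR2B below and HTR4 above it with flanks.

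**Figure D5:**
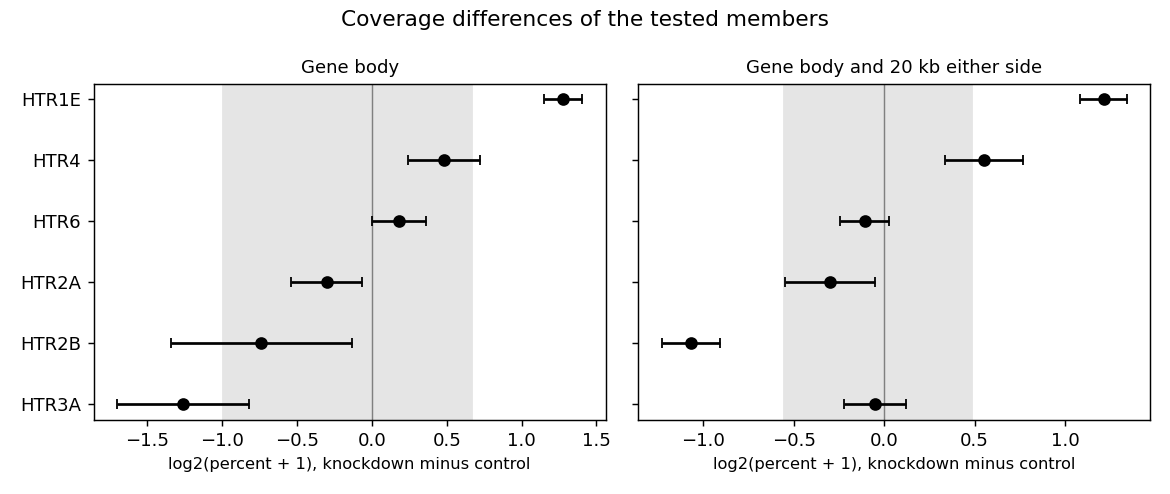
Difference between knockdown and control on the log2(percent + 1) scale for the 6 tested genes, as the fitted value with its SE, for the gene body (left) and with 20 kb on either side (right); grey bands mark the 5th to 95th percentile of all tested genes. HTR1E (1.28 and 1.21) is a description because it was selected on this difference, and HTR2B with flanks (-1.07) is the other called gene.

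The level of 5hmC peaks also differed between the genes. In controls HTR6 was covered most (6.11% ± 0.0626 of its body), followed by HTR1E, HTR2B, HTR2A, HTR3A and HTR4, then HTR2C at 0.0696% and the 3 genes without peaks. From HTR6 down to HTR3A the libraries of each neighbouring pair in this order overlapped, and every control of HTR4 lay below every control of HTR3A. In knockdowns HTR1E came first at 11.5%, with all 3 libraries above all libraries of the other genes. For comparison, the median over all 16814 genes was 2.01% in controls and 1.72% in knockdowns, and 27.6% of them had no peak. Of the 10 receptor genes 3 had none.

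The genes that surround these receptors in the serotonin pathway were taken from lists by role, not picked for how they moved. Of 7 other serotonin receptor genes 5 had no peak and 1, HTR3B, could be tested. Of 10 genes for serotonin synthesis, storage, uptake and breakdown 7 were tested, none was called, and all 7 differences were positive (median 0.26, against 0.02 over all genes, of which 5260 of 10077 were positive). The most covered were DDC, the decarboxylase shared by serotonin and dopamine synthesis, at 21.5% ± 1.28 in controls and 25.7% ± 0.253 in knockdowns (adjusted p = 0.233), and SLC18A2, the vesicular monoamine transporter, at 18.0% ± 1.47 and 18.3% ± 0.922 (adjusted p = 0.625). Centring raised these differences. Without it that of DDC fell from 0.35 to 0.25 and that of SLC18A2 from 0.13 to 0.025. The smallest, SLC6A4, was 0.10 (SE 0.26) with it. Of 10 transcription factor genes of serotonergic neurons 3 were tested and none was called. Among them GATA3 was covered over 23.03% ± 3.93 and 24.0% ± 3.84 (adjusted p = 0.621), and FEV, a gene too short to enter the test, over 30.6% ± 18.6 and 22.9% ± 6.66.

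Downstream of the receptors, 27 genes of G proteins and effectors were listed, 23 were tested and none was called, with 13 positive and 10 negative differences and a median of 0.08. GNAS, which encodes the stimulatory G protein subunit used by the receptors of HTR4, HTR6 and HTR7, was covered over 23.3% ± 1.20 in controls and 26.1% ± 0.833 in knockdowns (adjusted p = 0.371). PLCB3, a phospholipase C gene of the Gq pathway, was covered over 16.7% ± 2.68 and 15.3% ± 2.07 (adjusted p = 0.986). Of 23 genes of other aminergic receptors 10 were tested and 1 was called lower, CHRM4, an inhibitory muscarinic acetylcholine receptor gene. Over all genes tested 0.506% were called lower. CHRM4 was covered over 4.76% ± 0.657 in controls and had no peak in any knockdown (limma adjusted p = 0.00844). It therefore met the filter of a 1% mean through its controls alone. Its call was lost without control 1 (0.0502) or control 3 (0.0812) and with stricter peaks (0.353).

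The label of the cells was set against marker lists. Of 7 noradrenergic neuroblastoma markers TH and DBH, enzymes of noradrenaline synthesis, were covered over 45.0% ± 3.12 and 36.8% ± 5.74 in controls and 50.3% ± 6.82 and 41.3% ± 0.953 in knockdowns (adjusted p = 0.458 and 0.486), while PHOX2A and HAND2 had no peak. Of 7 mesenchymal markers 6 and of 4 Schwann cell markers 3 had a peak in at least 1 library, and 3 of each list could be tested. None of the 3 lists had a called gene. Differences were positive in 4 of 4 tested noradrenergic genes (median 0.26), in 1 of 3 mesenchymal genes (median -0.10) and in 0 of 3 Schwann cell genes (median -0.19). The median of the mesenchymal genes in a library ranged from 0.208% to 4.75% in controls and from 0.358% to 3.43% in knockdowns, and that of the Schwann cell genes from 4.88% to 5.79% and from 2.36% to 5.66%. Their part in the results was not tested, and 5hmC coverage is no measure of expression.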

How the data were processed

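The data were 6 lists of 5hmC peaks, 3 from control and 3 from TDP-43 knockdown SH-SY5Y cells. The submitters' processing notes list the build hg38 and, as tools, MACS2 2.2.6, Bowtie2 2.4.4 and SAMtools, but not what each did. For every peak the deposited lists hold the authors' score, fold enrichment and significance (−log10 of the p-value and of the q-value), beside other values: its position and summit offset. Peaks were called per library. Whether the input library, not used here, served as a control is not given in the sources used here.

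Everything else was computed from peak positions and RefSeq gene positions (GRCh38.p14). Coverage was the percent of a gene, or of a gene with 20 kb on either side, under peaks. Genes with a mean of at least 1% (10077 and 11904 of 16814) were tested as log2(percent + 1), a scale that understates changes of sparsely covered genes, with the libraries first centred on their median deviation. The model was limma 3.58.1 (R 4.3.3), with the variance trend, and Benjamini-Hochberg adjustment at 0.05. The fit was tested on simulated data. Other steps used Python 3.11.15 with pandas 2.3.3 and numpy 2.4.6. Merged regions joined overlapping or adjoining peaks of the 6 lists.

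The 10 genes and all gene lists were chosen with earlier results of these data known. Named were all 10 genes, list genes that were called or otherwise the 2 most covered, the 5 genes most like HTR1E, and genes sharing counted peaks. Neighbours of HTR1E and marker genes without a peak were named in addition, after their values were seen. Alternatives were another pseudocount, filter, peak threshold, scaling, flank, summit counts, a replicate block and leaving out each library.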

Additional observations from a re-analysis of the deposited data

How the results depend on the processing

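Counts of called genes moved with the settings. In the gene body 18 genes were higher and 51 lower. The higher count became 30 with equal numbers of peaks and 32 with summits per 10 kb. The lower count became 97 with stricter peaks, 95 without centring and 92 with summits. Leaving out 1 library gave 4 to 37 higher and 9 to 71 lower. With flanks 16 were higher and 27 lower. The higher count became 3 and the lower 5 with a pseudocount of 0.25, 2 and 2 with 10 kb flanks, 25 and 54 with 50 kb flanks, and 26 and 57 with equal numbers of peaks. With summits both were 0 by limma, although 1692 genes had an unadjusted p under 0.05. The higher count was 10 with no filter and 3 without centring, and the lower count was 45 with a pseudocount of 4 and 75 with stricter peaks. Leaving out 1 library gave 0 to 193 higher and 0 to 212 lower, the highest without control 2. Without centring 88.0% of gene-body calls were lower in place of 73.9%, and 92.3% in place of 62.8% with flanks. The cause was not tested.

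Replicate numbers were not taken as pairs. Correlations of deviations between control and knockdown libraries of the same number were -0.13, -0.08 and -0.01. These values cannot settle whether such libraries were handled together. With a replicate block no gene was called (0 higher and 0 lower in both fits by limma), and 1052 and 1556 genes had an unadjusted p under 0.05.

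At the 10 genes, regions of controls alone numbered 1 and became 4 when peaks had to cover at least 50% of a region, 3 with stricter peaks and 2 with equal numbers of peaks. Regions of knockdowns alone numbered 0 and became 4 with that coverage rule. Regions of HTR1E, which was chosen for its knockdown coverage, are among these 4. The share of all merged regions under that rule was not worked out. Leaving out 1 library gave 1 to 3 regions of controls alone and 0 to 2 of knockdowns alone. Mean knockdown peak counts were 29.3 with stricter peaks and 30.7 with equal numbers, in place of 34.7. HTR1E differed by 0.41 to 1.42 in the gene body over 14 settings and by 0.49 to 1.39 with flanks over 16. The lowest value of each range came from summits per 10 kb, which is another scale. Differences changed sign in 7 genes: HTR2B in the gene body with stricter peaks (0.10), HTR3A with 50 kb flanks (0.047) and when leaving out 1 library (-0.15 to 0.077), HTR6 with flanks by summits (0.043), HTR3B with equal numbers of peaks (-0.045) and without centring (-0.053), PLCB3 with a pseudocount of 0.25 (0.0020), stricter peaks (0.018), summits (0.26) and when leaving out 1 library (-0.15 to 0.15), and ZNF292 and NBL1 when leaving out 1 library (-0.040 to 0.37 and -0.27 to 0.027). The replicate block ended the calls of HTR2B with flanks (adjusted p = 0.112) and CHRM4 (adjusted p = 0.128).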
